A study of Mus musculus with 7 samples.

Results

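The genes described here are those of sterol synthesis and of its control by the SREBP transcription factors, measured in vascular fragments of the brain. The list held 26 gene symbols, chosen by name, and a gene was taken where a probe set carried its symbol alone, with the brightest probe set standing for the gene. This gave 24 genes of the 22180 with such a probe set, namely 17 synthesis enzymes, 5 SREBP regulators and 2 further lipid genes under SREBP control. The probe set of Idi1 carried more than 1 symbol, and Idi1 and Acat2 were not analysed here. Female C57BL/6N mice aged 12 weeks, with no transgene or other allele named, received PDGF-CC (4 arrays) or phosphate-buffered saline, PBS (3 arrays), by injection into the ventricles of the brain, and vessels were taken 4 hours later. The comparison asks what the growth factor does to the RNA of brain vessels. The labels do not say whether an array holds 1 mouse or a pool, so the p-values reflect only how far these arrays scatter, and some of that scatter may be technical.

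Cholesterol is made from acetyl-CoA by way of mevalonate, farnesyl pyrophosphate, squalene and lanosterol. The brain makes its own cholesterol because the blood-brain barrier keeps out plasma lipoproteins. SREBP-2, encoded by Srebf2, and SREBP-1, encoded by Srebf1, sit in the endoplasmic reticulum bound to the escort protein SCAP. When sterols are plentiful the INSIG proteins hold this complex back, and when sterols are scarce SCAP carries it to the Golgi, where proteases release the active factor.

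The promoters of 3 members are shown, because 1 holds the classical sterol response letters and the others belong to the members with the smallest p-values. They run 5′ to 3′ from 250 bases before the annotated start to 50 after it, from RefSeq on GRCm38.p6, and lie at chr13:119690101-119690400 (plus strand) for Hmgcs1, chr15:82147019-82147318 (plus strand) for Srebf2 and chr12:16610917-16611216 (minus strand) for Lpin1. Capitals mark the sterol response letters TCACNCCAC or, where only these are present, the first 8 of them, TCACNCCA, and also CCAAT and GGGCGG, each on either strand.
Hmgcs1: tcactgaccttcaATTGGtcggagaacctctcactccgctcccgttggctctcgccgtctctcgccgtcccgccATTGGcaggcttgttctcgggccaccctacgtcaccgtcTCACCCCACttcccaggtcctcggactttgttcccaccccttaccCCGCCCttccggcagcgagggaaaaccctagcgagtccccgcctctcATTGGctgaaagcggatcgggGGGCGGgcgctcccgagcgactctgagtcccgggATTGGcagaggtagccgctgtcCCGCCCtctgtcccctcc
Srebf2: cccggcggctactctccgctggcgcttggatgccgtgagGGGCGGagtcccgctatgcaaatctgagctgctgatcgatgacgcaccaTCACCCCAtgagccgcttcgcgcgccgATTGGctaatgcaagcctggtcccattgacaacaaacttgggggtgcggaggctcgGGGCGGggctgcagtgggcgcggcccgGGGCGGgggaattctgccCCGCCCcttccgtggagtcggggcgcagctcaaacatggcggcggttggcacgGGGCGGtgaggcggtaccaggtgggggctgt
Lpin1: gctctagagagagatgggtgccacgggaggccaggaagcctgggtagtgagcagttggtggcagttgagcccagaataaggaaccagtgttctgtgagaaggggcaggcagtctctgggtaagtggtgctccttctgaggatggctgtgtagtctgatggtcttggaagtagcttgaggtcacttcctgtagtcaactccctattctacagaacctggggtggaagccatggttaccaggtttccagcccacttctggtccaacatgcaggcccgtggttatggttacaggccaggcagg
Promoters were found for 20 of the 24 members, 28 sequences in all. Those of Fdps, Fdft1, Sqle and Stard4 were not found and so were not searched. The full letters TCACNCCAC stood in 1 of these 28 (3.57%), that of Hmgcs1, and in 1.24% of all 32851 promoters of the same length. The shorter TCACNCCA, searched after the sequences were seen, stood in 3 (10.7%, against 4.36% of all), those of Hmgcs1, Msmo1 and Srebf2. CCAAT, the letters bound by NF-Y, a partner of SREBP, stood in 19 (67.9%, against 37.4%), and GGGCGG, bound by Sp1, in 21 (75.0%, against 35.7%). The Lpin1 window held none of them. Such matches describe the letters of these windows and show no binding.

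Values between arrays correlated at 0.982 to 0.992 over the 17734 probe sets tested. All 10 endothelial markers passed the filter on dim probe sets, a mean of 4.14 on the log2 scale, and so did all markers found of pericytes, smooth muscle, astrocytes, oligodendrocytes, microglia and choroid plexus. Between the groups the mean over 8 choroid plexus markers differed by -0.62 (PDGF-CC minus PBS) and that over 7 microglial markers by +0.23, with PBS array 2 at -0.43 from the microglial mean of all arrays and every other array between -0.00064 and +0.11. Markers of neutrophils and monocytes differed by -0.27, with arrays from -0.66 (PDGF-CC array 4) to +0.49 (PBS array 1), those of perivascular fibroblasts by -0.20, of pericytes by -0.17 and of smooth muscle by +0.15. In bulk RNA, fewer cells of a type and less RNA per cell cannot be told apart. Several arrays often held exactly the same value for a probe set. This was so for 3 or more arrays in 37.4% of probe sets tested and in 11 of the 24 members, and such equal values narrow the spread that the tests use.

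Differences between PDGF-CC and PBS were small for most sterol genes, as they were for most probe sets. All 24 passed the filter on dim probe sets, and 0 of them passed an adjusted p of 0.05 by limma with Benjamini-Hochberg adjustment, as did 0 (0%) of all probe sets. At an unadjusted p under 0.05 there were 2 members, Srebf2 higher and Lpin1 lower, which is 1 in each direction, against 2.63% of all probe sets higher and 3.41% lower (6.04% together). The differences ran from -0.27 (Insig2) to +0.17 (Srebf2), with a median of +0.044 against -0.0029 over all genes tested. Of the members 15 were positive and 9 negative, against 7591 and 7954 of the 15582 genes tested. For 23 of the 24 members the 95% interval of the difference lay within 1.5-fold in both directions, as it did for 88.3% of all probe sets. Insig2 was the exception. The count at an unadjusted p under 0.05 was 0 without PBS array 2, 1 without PBS array 1 or any single PDGF-CC array, and 3 without PBS array 3.

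**Figure D1:**
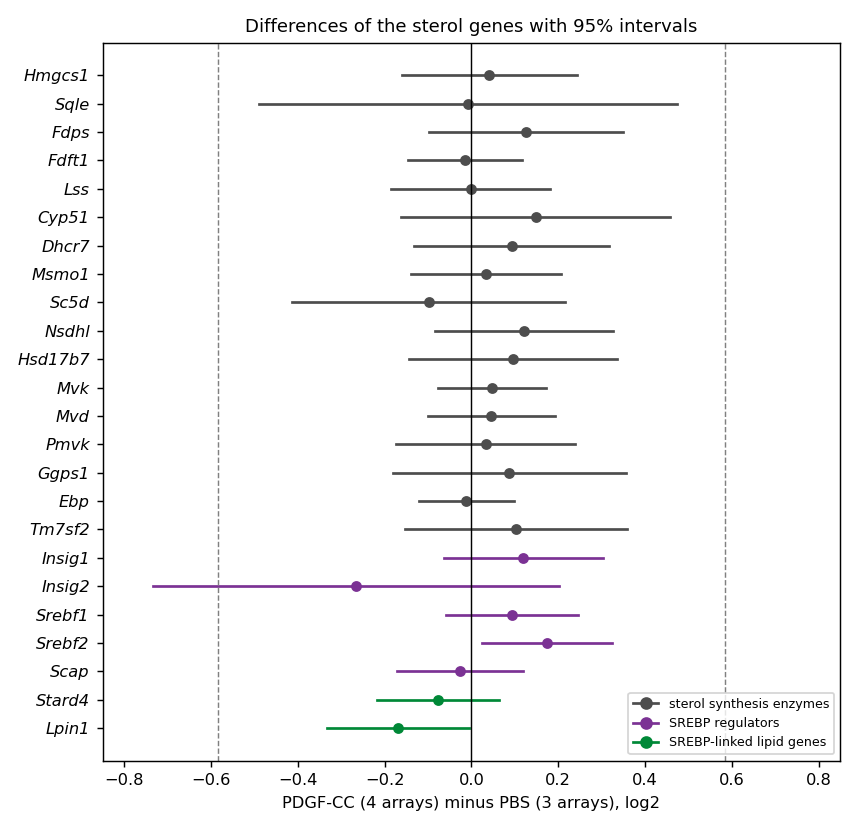
Difference between PDGF-CC (4 arrays) and PBS (3 arrays) for each of the 24 sterol genes on the log2 scale, with points for the estimate and lines for the 95% interval from limma. Dashed lines mark a 1.5-fold difference, which the interval of Insig2 alone crosses, and the intervals of Srebf2 and Lpin1 alone leave out 0.

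Srebf2, which encodes the main activator of sterol synthesis genes, was the member with the smallest p. Its log2 values were 7.49, 7.52, 7.62 and 7.47 in PDGF-CC arrays 1 to 4, and 7.38, 7.25 and 7.42 in PBS arrays 1 to 3. Every PDGF-CC array thus lay above every PBS array, as it did for 1.80% of all probe sets, and PBS array 2, where microglial markers were lowest too, was the lowest. That array was the lowest for 18.1% of all probe sets, and choroid plexus markers were highest in it, at +0.54. The part of microglial or choroid plexus RNA in the Srebf2 values was not tested. The difference of Srebf2 was +0.17 ± 0.063 (log2, SE, n = 4 and 3), a 1.13-fold difference, with a 95% interval from 0.025 to 0.32 (unadjusted p = 0.0282, adjusted p = 0.769 by limma). It was +0.13 without PBS array 2 (unadjusted p = 0.0811 by limma) and +0.14 without PDGF-CC array 3 (unadjusted p = 0.0612 by limma). Each sample is also described by a running number, 1 to 7, and the difference was +0.19 among numbers 1 to 4 and +0.13 among 5 to 7. Over the alternatives its unadjusted p by limma ran from 0.0151 to 0.0811 and was under 0.05 in 15 of 17. Its adjusted p ran from 0.567 to 0.847.

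The other factor gene and the retention genes did not separate the groups. Srebf1 had log2 values of 6.34, 6.30, 6.37 and 6.37 in PDGF-CC arrays 1 to 4 and 6.24, 6.14 and 6.37 in PBS arrays 1 to 3, so that PBS array 3 reached the top of the PDGF-CC range. Its difference was +0.094 ± 0.064 (adjusted p = 0.771 by limma), +0.039 without PBS array 2 and +0.15 without PBS array 3 (unadjusted p = 0.0323 by limma). Insig1, an INSIG gene that is itself a strong target of SREBP, stood at 8.01, 8.18, 8.17 and 7.96 in the PDGF-CC arrays and 8.01, 8.01 and 7.86 in the PBS arrays. PDGF-CC arrays 2 and 3 were above all others, and PDGF-CC arrays 1 and 4 were among the PBS values. The difference was +0.12 ± 0.078 (95% interval -0.064 to 0.30, adjusted p = 0.770 by limma), and +0.069 without PBS array 3.

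Insig2, the INSIG gene that does not depend on SREBP in the same way, had the widest spread of the regulators. It stood at 6.28, 6.86, 7.13 and 7.07 in PDGF-CC arrays 1 to 4 and at 7.07, 7.16 and 7.07 in PBS arrays 1 to 3. PDGF-CC array 1 was far below the rest, and arrays 3 and 4 were within the PBS range. The difference of -0.27 ± 0.20 had a 95% interval from -0.73 to 0.20, and without PDGF-CC array 1 it was -0.081. Scap, the escort gene, was at -0.027 ± 0.062 on its brighter probe set and at +0.014 ± 0.073 on the dimmer one.

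Both further lipid genes had a negative difference, but only Lpin1 separated the groups. Lpin1 encodes lipin 1, a phosphatidate phosphatase of triglyceride synthesis that also acts in the nucleus. Its log2 values were 6.28, 6.09, 6.31 and 6.28 in PDGF-CC arrays 1 to 4 and 6.42, 6.46 and 6.35 in PBS arrays 1 to 3. Every PDGF-CC array was below every PBS array, as for 2.50% of all probe sets, with PDGF-CC array 2 the lowest. The difference was -0.17 ± 0.069, with a 95% interval from -0.33 to -0.0060 (unadjusted p = 0.0440, adjusted p = 0.769 by limma). It was -0.26 among description numbers 1 to 4 and -0.055 among 5 to 7, and -0.12 without PDGF-CC array 2. Its unadjusted p by limma ran from 0.0421 to 0.119 over the alternatives and was under 0.05 in 5 of 17. Stard4, which encodes a carrier of cholesterol in the cytosol, was at -0.076 ± 0.060, and at -0.038 without PDGF-CC array 2. Its groups overlapped, and 4 arrays held exactly the same value, PDGF-CC arrays 1 and 3 and PBS arrays 1 and 3.

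**Figure D2:**
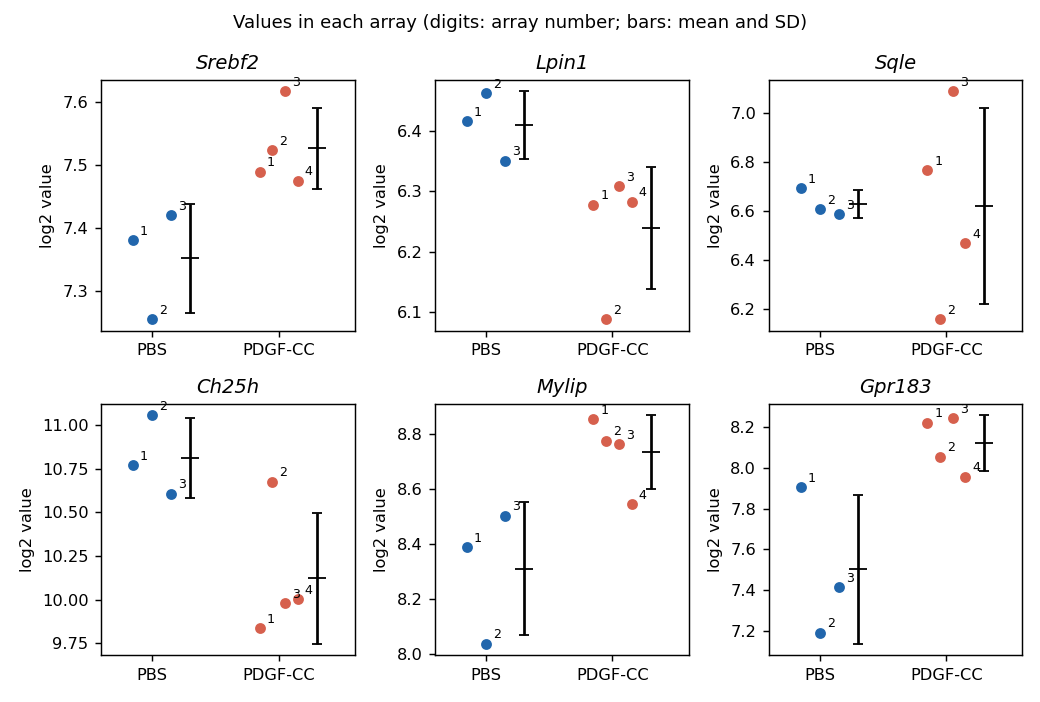
Log2 values of 3 sterol genes (upper row) and 3 genes of the oxysterol and LXR list (lower row) in each array, with the array number beside each point and bars for the mean and SD of each group (PBS, 3 arrays; PDGF-CC, 4 arrays). Srebf2, Mylip and Gpr183 lie higher and Lpin1 lower in every PDGF-CC array, Ch25h overlaps in PDGF-CC array 2, and Sqle spreads from 6.16 to 7.09 among the PDGF-CC arrays.

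The enzymes from acetyl-CoA to farnesyl pyrophosphate differed by small amounts. Hmgcs1, which makes HMG-CoA ahead of the committed step, had log2 values of 8.33, 8.19, 8.55 and 8.33 in PDGF-CC arrays 1 to 4 and 8.27, 8.33 and 8.32 in PBS arrays 1 to 3. The PDGF-CC arrays thus spread to both sides of the PBS arrays, with a difference of +0.041 ± 0.086. The kinase genes Mvk and Pmvk, which phosphorylate mevalonate in turn, were at +0.048 ± 0.053 and +0.032 ± 0.087. Mvd, the decarboxylase that follows, held the value 6.04 in 6 arrays and 6.22 in PDGF-CC array 4 (+0.046 ± 0.062). Fdps, which makes farnesyl pyrophosphate, was at +0.12 ± 0.095, and Ggps1, which extends it for protein prenylation, at +0.087 ± 0.11. All of these had an adjusted p between 0.779 and 0.933 by limma, and for each the groups overlapped. Over all probe sets the groups did not overlap in 1.80% with PDGF-CC higher and 2.50% with it lower. Single arrays carried much of the values of these enzymes. Fdps was at +0.053 when PDGF-CC array 3 was left out and at +0.061 when PBS array 2 was. Leaving out PDGF-CC array 2 gave +0.021 for Mvk, leaving out PBS array 2 gave it +0.022, and leaving out PDGF-CC array 4 gave 0 for Mvd.

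On the way from farnesyl pyrophosphate to lanosterol the estimates lay near 0. Fdft1, squalene synthase, was at -0.016 ± 0.055. Sqle, squalene epoxidase and a rate-limiting step, had log2 values of 6.77, 6.16, 7.09 and 6.47 in PDGF-CC arrays 1 to 4 and 6.69, 6.61 and 6.59 in PBS arrays 1 to 3. The PBS arrays lay close together, and the PDGF-CC arrays lay on both sides of them over a 1.91-fold range. The difference was -0.0086 ± 0.20, with a 95% interval from -0.49 to 0.47, so a difference of up to that size in either direction would not have been resolved. Lss, which closes the ring to give lanosterol, was at -0.0013 ± 0.078, with 5 arrays at exactly the same value.

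Among the enzymes that turn lanosterol into cholesterol, 6 of 8 were positive, against 7591 of the 15582 genes tested. None of the 8 enzymes separated the groups, which 1.80% of all probe sets did with PDGF-CC higher and 2.50% with it lower. Cyp51, the lanosterol demethylase, had log2 values of 6.28, 6.20, 6.73 and 6.33 in PDGF-CC arrays 1 to 4 and 6.34, 6.14 and 6.23 in PBS arrays 1 to 3, with PDGF-CC array 3 well above the rest. Its difference was +0.15 ± 0.13, and it was +0.032 without that array. It was +0.098 when PBS array 2 was left out and +0.000625 among description numbers 1 to 4. Nsdhl and Hsd17b7, which act with Msmo1 to remove methyl groups, were at +0.12 ± 0.087 and +0.096 ± 0.10, and Msmo1 at +0.034 ± 0.073. The reductase gene Tm7sf2 was at +0.10 ± 0.11, and Dhcr7, the reductase of a last step, at +0.093 ± 0.095. Negative values were those of the isomerase gene Ebp (-0.012 ± 0.047) and of Sc5d, a desaturase (-0.099 ± 0.13). Adjusted p for these 8 lay between 0.773 and 0.953 by limma. Here too single arrays moved the values. Without PDGF-CC array 1 Tm7sf2 was at +0.014, Dhcr7 at +0.011, Hsd17b7 at +0.038 and Sc5d at -0.046. Without PBS array 2 Nsdhl was at +0.035, Hsd17b7 at +0.042 and Sc5d at -0.18. Nsdhl was at +0.19 without PBS array 1 and Tm7sf2 at +0.042 without PBS array 3. Hsd17b7 was at +0.17 without PDGF-CC array 4, and Sc5d moved to -0.20 when PDGF-CC array 3 was left out and to -0.033 when PDGF-CC array 2 was. The count of positive values among these enzymes rests on differences of this kind.

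Arrays of the same treatment held both the highest and the lowest values of many members. PDGF-CC array 3 was the highest of all arrays for 8 members (Hmgcs1, Sqle, Fdps, Cyp51, Msmo1, Sc5d, Ebp and Srebf2), which is a larger share than the 13.4% of all probe sets with their highest value there. It was the lowest for 0. PDGF-CC array 2, with the same treatment, was the lowest for 8 (Hmgcs1, Sqle, Lss, Sc5d, Pmvk, Scap, Stard4 and Lpin1), against 16.1% of probe sets, and PBS array 2 for another 8, against 18.1%. PDGF-CC array 1 was the highest for 4 members and the lowest for 1, against 15.1% and 19.7% of probe sets. The arrays were singled out after their values were seen.

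**Figure D3:**
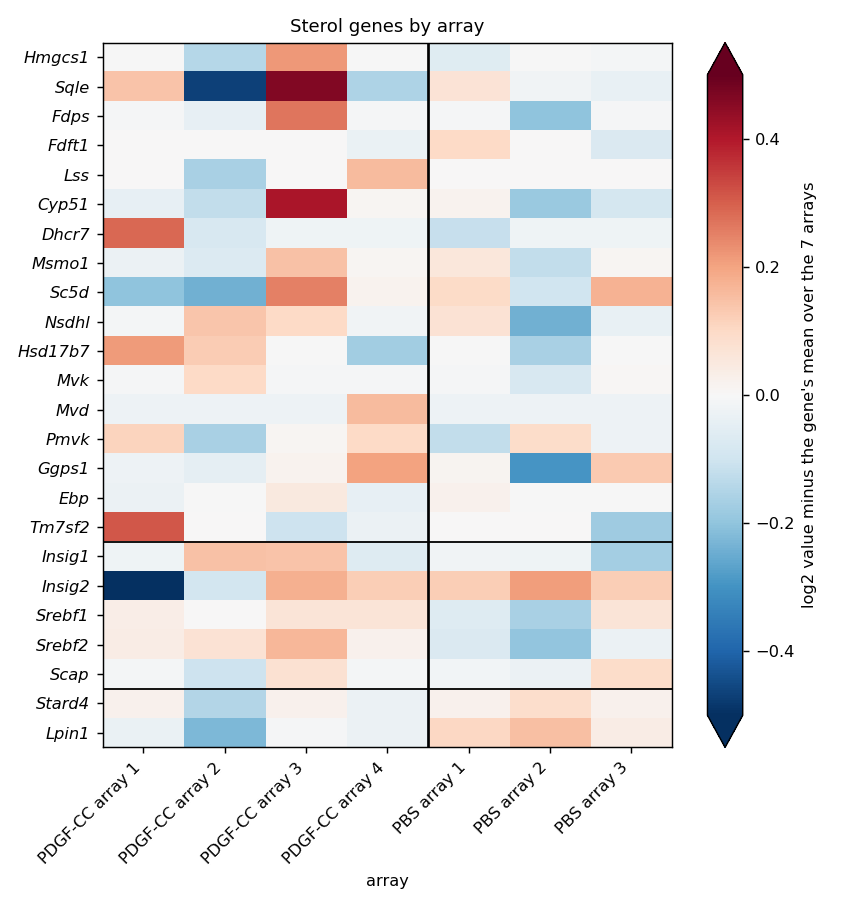
Log2 value of each sterol gene in each of the 7 arrays, as its deviation from the gene's mean over all arrays (colour, with deviations beyond 0.5 in the end colours), with lines between PDGF-CC and PBS and between enzymes, regulators and further lipid genes. PDGF-CC array 3 is the highest for 8 members, and PDGF-CC array 2 and PBS array 2 are each the lowest for 8.

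As a mean over the 17 enzymes, PDGF-CC array 3 stood at +0.10 from the mean of all arrays, PDGF-CC array 2 at -0.070 and PBS array 2 at -0.080, and the other 4 between -0.011 and +0.041. Astrocytes are a main source of cholesterol in the adult brain. Over 8 astrocyte markers PDGF-CC array 3 also stood highest, at +0.15, and it was the highest array for 4 of them. It stood highest over the smooth muscle and microglial markers as well, at +0.13 and +0.11. Other arrays differed between the lists. PDGF-CC array 1 stood lowest over the astrocyte markers, at -0.14, and at +0.041 over the enzymes. PBS array 1 stood at +0.12 over the astrocyte markers and at +0.0065 over the enzymes. Choroid plexus markers were lowest in PDGF-CC array 3, at -0.73. Oligodendrocytes make the cholesterol of myelin, and over 8 of their markers the arrays lay between -0.099 and +0.26, with the highest in PDGF-CC array 1. The part of these markers in the variation of the enzymes was not tested.

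**Figure D4:**
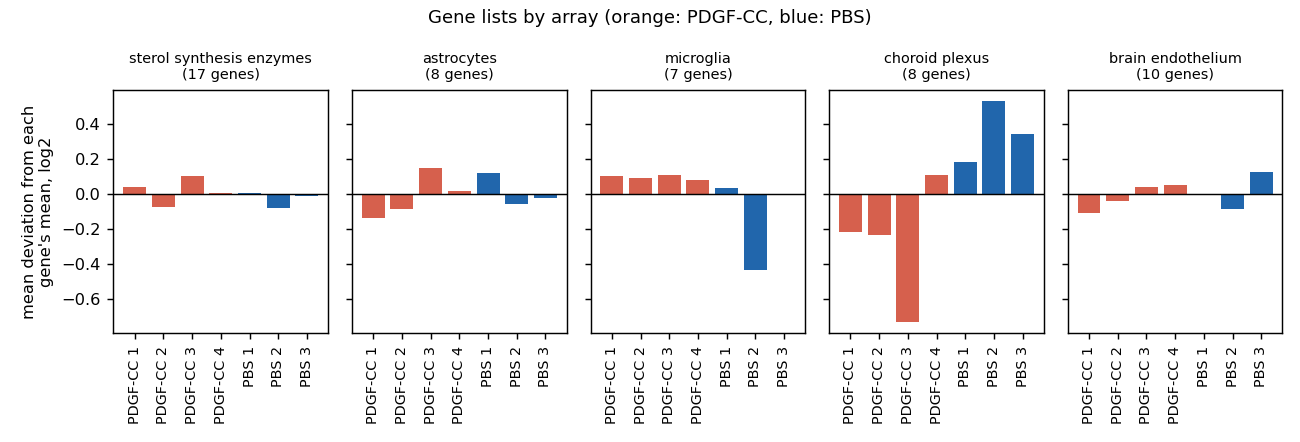
Mean deviation of 5 gene lists in each of the 7 arrays, in log2 units from each gene's mean over all arrays, with orange bars for PDGF-CC and blue for PBS. The 17 sterol enzymes stay between -0.080 and +0.10, while microglial markers reach -0.43 in PBS array 2 and choroid plexus markers -0.73 in PDGF-CC array 3.

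No gene that acts on the SREBP proteins or on the isoprenoid branch passed the adjusted threshold. Of 14 genes for SREBP processing and degradation, 6 were positive and 8 negative, with a median of -0.0072 and 0 at an unadjusted p under 0.05 in either direction. Fbxw7, part of a ubiquitin ligase that marks nuclear SREBP, was at +0.22 ± 0.092 (adjusted p = 0.769 by limma), the ligase gene Rnf139 at +0.15 ± 0.083, and Mbtps1, the first Golgi protease, at -0.20 ± 0.13. The unadjusted p of Fbxw7 was 0.0519 by limma, and under 0.05 in 6 of 17 alternatives, down to 0.0190 without PBS array 1. Rnf139 was at +0.066 without PBS array 1 and Mbtps1 at -0.086 without PDGF-CC array 2. Of 10 genes of the isoprenoid branch 4 were positive and 6 negative, with a median of -0.022. Again 0 had an unadjusted p under 0.05, against the same 2.63% and 3.41% of all probe sets. With lists this short, a count of 0 is near those shares. The smallest p-values of this branch were those of Pdss2, of coenzyme Q synthesis (-0.22 ± 0.14), and Pggt1b and Fntb, subunits of prenyl transferases (+0.078 ± 0.076 and -0.15 ± 0.11). Leaving out PBS array 2 gave -0.080 for Pdss2, and leaving out PDGF-CC array 1 gave -0.13. For Fntb, dropping PDGF-CC array 4 gave -0.23 (unadjusted p = 0.0369 by limma), dropping PDGF-CC array 2 gave -0.085, and dropping PBS array 3 gave -0.089. Lbr and Erg28, a sterol reductase and a scaffold of the synthesis enzymes, were at +0.051 ± 0.060 and +0.030 ± 0.10.

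The oxysterol and LXR list, whose genes make or sense oxysterols, spanned differences from -0.69 to +0.62, with 0 past the adjusted threshold. Of its 12 genes 7 were positive and 5 negative, with a median of +0.069, and 3 were higher and 1 lower at an unadjusted p under 0.05, against 2.63% and 3.41% of all probe sets. Ch25h, which makes the oxysterol that binds INSIG and holds SREBP back, had log2 values of 9.84, 10.67, 9.98 and 10.00 in PDGF-CC arrays 1 to 4 and 10.77, 11.06 and 10.61 in PBS arrays 1 to 3. All PDGF-CC arrays but array 2 lay below the PBS arrays. The difference was -0.69 ± 0.21, a level 1.61 times higher in PBS (95% interval -1.19 to -0.19, unadjusted p = 0.0141, adjusted p = 0.769 by limma), and -0.36 ± 0.13 on a second, dimmer probe set. It was -0.57 without PBS array 2 (unadjusted p = 0.0605 by limma), -0.66 among description numbers 1 to 4 and -0.62 among 5 to 7.

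Mylip, which encodes the ligase IDOL that degrades lipoprotein receptors and is a target of LXR, had log2 values of 8.86, 8.78, 8.76 and 8.55 in PDGF-CC arrays 1 to 4 and 8.39, 8.04 and 8.50 in PBS arrays 1 to 3. Every PDGF-CC array lay above every PBS array, though PDGF-CC array 4 and PBS array 3 were close. The difference was +0.43 ± 0.13 (95% interval 0.13 to 0.72, unadjusted p = 0.0116, adjusted p = 0.769 by limma). Its unadjusted p by limma was under 0.05 in 17 of 17 alternatives, and its adjusted p ran from 0.522 to 0.847. It was +0.29 without PBS array 2, in which microglial markers were also lowest, and +0.60 among description numbers 1 to 4 against +0.15 among 5 to 7. The part of microglial RNA in it was not tested. Gpr183, the receptor for an oxysterol made with the help of Ch25h, lay higher in the same way, at 8.22, 8.05, 8.24 and 7.96 in the PDGF-CC arrays and 7.90, 7.19 and 7.41 in the PBS arrays. Its difference was +0.62 ± 0.17 (unadjusted p = 0.00801, adjusted p = 0.769 by limma), +0.46 without PBS array 2, its lowest array as well, and +0.82 without PBS array 1. Its unadjusted p by limma was under 0.05 in 17 of 17 alternatives, and its adjusted p ran from 0.478 to 0.847. The part of microglial RNA was not tested for Gpr183 either. The remaining gene with an unadjusted p under 0.05 was Lpcat3, a phospholipid acyltransferase and LXR target, at +0.14 ± 0.057, with PDGF-CC array 1 and PBS array 1 at the same value. The LXR targets Abca1 and Abcg1, which export cholesterol, were at +0.14 ± 0.074 and +0.12 ± 0.10.

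Among uptake and fatty acid genes 0 passed the adjusted threshold. Of 14 genes of sterol uptake, transport and storage 9 were positive and 5 negative, with a median of +0.030. At an unadjusted p under 0.05, 0 were higher and 1 lower, against 2.63% and 3.41% of all probe sets. The lower one was Lipa, the lysosomal lipase that frees cholesterol from its esters, at -0.25 ± 0.096 (unadjusted p = 0.0350, adjusted p = 0.769 by limma). Its groups overlapped, and PDGF-CC arrays 3 and 4 and PBS array 2 held exactly the same value. Without PBS array 3 it was at -0.20 (unadjusted p = 0.119 by limma). The unadjusted p of Lipa was under 0.05 by limma in 13 of 17 alternatives. Npc2 and Stard3, which take part in cholesterol transport at lysosomes and late endosomes, were at +0.10 ± 0.054 and +0.097 ± 0.054 in turn. Leaving out PBS array 3 gave +0.057 for Stard3. Of 19 genes of fatty acid and triglyceride synthesis, many of them SREBP-1 targets, 8 were positive and 10 negative, and Acss2 held 1 value in all arrays. The median was -0.017. At an unadjusted p under 0.05, 1 was higher and 0 lower, against the same 2.63% and 3.41% of all probe sets. The higher one was Mid1ip1, an activator of acetyl-CoA carboxylase, at +0.26 ± 0.097, and at +0.20 without PBS array 2 (unadjusted p = 0.109 by limma). A second, dimmer probe set of Mid1ip1 was at +0.32 ± 0.17 (unadjusted p = 0.107 by limma), and the dimmest was not tested. Me1, a source of NADPH, was at -0.37 ± 0.16 and the desaturase gene Fads2 at -0.13 ± 0.076. The Fads2 difference became -0.069 on leaving out PBS array 1 and -0.21 on leaving out PBS array 2 (unadjusted p = 0.0200 by limma). Fasn, the fatty acid synthase gene, was at -0.017 ± 0.13.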

How the data were processed

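The deposited values were log2 probe set values of 7 arrays, as their range and nearly equal distributions showed. Per the submitters' processing notes the tools were limma, RMA and Affymetrix Expression Console, without versions or order. The genome build is not given in the sources used here. The small number of arrays limits precision.

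Symbols were read from the annotation of the platform. Of 33793 probe sets, 23521 had 1 symbol, 1814 several and 8458 none. The 17734 named probe sets whose mean exceeded the 30th percentile (4.14) were tested with limma 3.58.1 (lmFit, then eBayes; R 4.3.3), 2-sided, without covariates, with Benjamini-Hochberg adjustment over all of them. The fit was also run on simulated arrays with independent normal noise. These lack the exactly equal values seen here, and no result rests on them. Differences are PDGF-CC minus PBS on the log2 scale, ± SE. Levels are not compared between genes.

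The members and the gene lists were chosen with earlier results of these data known. Members were all named, and up to 3 genes of each other list with the smallest p. Lpcat3, Abca1, Abcg1, Fasn, Acss2 and the promoters of Srebf2 and Lpin1 were added after values were seen. Alternatives changed the filter, the normalization, the prior, the weighting or the covariates, or dropped 1 array. Figures were drawn with matplotlib 3.10.9.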

Additional observations from a re-analysis of the deposited data

Results flagged for a closer look

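In 8 of 41 genes examined, 1 of the 4 PDGF-CC arrays stood far from the other 3, measured by its gap to the nearest array as a share of the range. Chance flags about 1 in 20 such groups, and exactly equal values in the other arrays raise the share. Fdps was 7.27 in PDGF-CC array 3, with the others from 6.96 to 6.99. Dhcr7 was 5.88 in PDGF-CC array 1, with the others from 5.51 to 5.57. Lpin1 was 6.09 in PDGF-CC array 2, with the others from 6.28 to 6.31. In PDGF-CC array 4 Mvd was 6.22, with the others all at 6.04, and Fdft1 was 7.56, with the others all at 7.59. Mvk was 5.98 in PDGF-CC array 2, with the others all at 5.87. Outside the members, Pdss2 was 4.90 in PDGF-CC array 1, with the others from 5.27 to 5.32, and Mbtps1 was 6.89 in PDGF-CC array 2, with the others from 7.33 to 7.36.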

How the results depend on the processing

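Under all 17 alternatives 0 members passed the adjusted threshold. Over all probe sets tested 3 passed it with the filter at the 50th percentile, centring, a trended and robust prior or the mean over a gene's probe sets, and 1 with repeated quantile normalization or without PDGF-CC array 3. The median over members ran from +0.026 to +0.077 with 1 array left out. The count of members at an unadjusted p under 0.05 was 1 with arrays centred on their median, repeated quantile normalization, a trended and robust prior, array weights, description number as covariate or as a block, and ran from 0 to 3 with 1 array left out. With the sample number of the titles as a replicate block it was also 1. These numbers do not clearly pair the arrays, since deviations from the group means correlated at 0.163, 0.107 and 0.0844 in the 3 same-numbered pairs, although each PBS array but number 3 correlated best with its own number. Under some alternative 9 of the 24 members changed sign, as did 3 of the 17 genes named from other lists (Erg28, Lbr and Pggt1b). Sqle was at +0.0014 with centring, +0.0040 with quantile normalization, +0.0011 with weights, +0.012 with description number and +0.042 with the replicate block. Lss was at +0.0087 with centring, +0.023 with weights and +0.028 with description number. With quantile normalization Fdft1 was at +0.0022 and Ebp at +0.0076, and with the replicate block Erg28 was at -0.0035. With 1 array left out, Sqle ran from -0.16 to +0.15, Lss from -0.054 to +0.053, Fdft1 from -0.057 to +0.029, Scap from -0.057 to +0.010, Hmgcs1 from -0.024 to +0.095, Msmo1 from -0.018 to +0.072, Pmvk from -0.019 to +0.091, Ggps1 from -0.035 to +0.18, Erg28 from -0.047 to +0.12, Lbr from -0.0018 to +0.091 and Pggt1b from -0.0064 to +0.14. The cause of these sign changes was not tested.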
